A study of Rattus norvegicus with 5 samples.

Results

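Mast cells of rat skin were described here as the barcodes that carried genes of the mast cell granule and of the IgE receptor. They were selected on their own measured values, so the levels of the selecting genes are a description and not a finding. A barcode was a member when it had a UMI, a unique molecular identifier that marks 1 captured RNA molecule, of at least 2 of the 6 genes Cpa3, Ms4a2, Cma1, Tpsb2, Hdc and Fcer1a. It also had no UMI of C1qa, C1qb or C1qc, less than 1% of its UMIs from Col1a1, Col3a1 and Dcn, and less than 1% from 6 keratins. This rule found 87 members among 43408 kept barcodes, or 0.2004% of them.

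The series holds 5 droplet libraries from the skin of Sprague-Dawley rats, one for each of 5 conditions. These were irradiated skin at day 7, day 14, day 28 and day 60 after the exposure, labelled IR in the plots, and control skin. The study's methods give the animals as young males and the injury as a single electron-beam exposure of the buttock skin. The labels give no dose, the methods do not describe the day 60 library, and since each group is 1 library there was no test between groups. Irradiation cannot be told apart from the animal, the digestion or the library preparation. The 95% intervals below come from the counts alone and leave out the spread between cells and between animals.

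Mast cells are tissue-resident immune cells that mature under the growth factor receptor Kit and store histamine, heparin and serine proteases in granules. Antigen that cross-links IgE on their high-affinity receptor releases these stores and starts the synthesis of prostaglandins and cytokines. In rodents, connective tissue mast cells of the skin carry chymases, tryptases and carboxypeptidase A3, and mucosal mast cells carry other chymases. Basophils are blood cells that share the IgE receptor and histamine synthesis with mast cells but carry proteases of the Mcpt8 type.

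The 3 granule protease genes Cpa3, Cma1 and Mcpt1l1 carry most of what follows, so the sequence around the start of each is shown from RefSeq on build GRCr8, which is not the Rnor_6.0 build of the deposited counts. Each run holds 250 bases before and 50 bases after the start, 5′ to 3′ on the gene's own strand. Capitals mark a GATA hexamer on either strand, which is AGATAA or the same with T at its first base, G at its last base or both. GATA factors such as Gata2, a regulator of the mast cell lineage, are known to bind these letters.
Cpa3, carboxypeptidase A3, chr2:104673188-104673487, minus strand: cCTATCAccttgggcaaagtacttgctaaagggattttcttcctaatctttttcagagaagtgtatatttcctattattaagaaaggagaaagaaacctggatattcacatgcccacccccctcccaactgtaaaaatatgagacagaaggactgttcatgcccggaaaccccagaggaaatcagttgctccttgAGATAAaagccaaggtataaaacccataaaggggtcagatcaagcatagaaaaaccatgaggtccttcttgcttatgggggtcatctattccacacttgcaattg
Cma1, a chymase, chr15:33390084-33390383, minus strand: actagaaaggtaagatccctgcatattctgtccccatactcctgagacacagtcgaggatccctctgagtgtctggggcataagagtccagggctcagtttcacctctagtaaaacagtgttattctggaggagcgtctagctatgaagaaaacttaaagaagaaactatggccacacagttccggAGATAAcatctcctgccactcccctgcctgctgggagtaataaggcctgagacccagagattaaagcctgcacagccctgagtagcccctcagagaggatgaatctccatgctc
Mcpt1l1, the chymase also listed as rMCP-1, chr15:33876846-33877145, minus strand: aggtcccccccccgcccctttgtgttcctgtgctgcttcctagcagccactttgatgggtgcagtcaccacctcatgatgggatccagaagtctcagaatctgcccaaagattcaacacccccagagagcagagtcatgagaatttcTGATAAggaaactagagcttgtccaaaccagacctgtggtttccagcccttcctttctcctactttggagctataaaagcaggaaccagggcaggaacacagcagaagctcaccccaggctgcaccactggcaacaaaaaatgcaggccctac
The hexamer lay 55 bases before the start in Cpa3, 64 in Cma1 and 103 in Mcpt1l1, and Cpa3 held another match 249 bases before it. Of 13 mast cell genes looked up, 11 were in the table and 5 of those held a match, against 30.3% of all 33469 promoters. A match is only a run of letters and was not tested as a binding site.

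Control skin gave 43 members of 10153 kept barcodes, and the later libraries gave fewer. The share of kept barcodes was 0.4235% (0.3067 to 0.5701) in control, 0.2831% (0.1937 to 0.3994; 32 members) on day 7 and 0.1373% (0.0504 to 0.2986; 6 members) on day 14. It was 0.0332% (0.00685 to 0.0970; 3 members) on day 28 and 0.0351% (0.00724 to 0.103; 3 members) on day 60. Relative to control the share was 0.0784 times as large (0.0156 to 0.245) on day 28 and 0.0829 times as large (0.0165 to 0.259) on day 60. The interval of the ratio on day 7, 0.668 (0.409 to 1.08), included 1. Among barcodes of at least 1000 UMIs, thinned to 1000 UMIs, the share was 0.2426% on day 7 (26 of 10717) and 0.2477% in control (24 of 9691), and no difference was detectable. That filter left out 5 of 32 members on day 7 and 14 of 43 in control as too shallow, so leaving out shallow members and equal depth cannot be told apart there.

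The scarcity on days 14, 28 and 60 did not rest on the selecting genes alone. Mcpt1l1, which the rule did not use, had at least 10 UMIs in 43 kept barcodes of control, 33 on day 7, 0 on day 14, 2 on day 28 and 3 on day 60. The exact interval of the share for 0 of 4370 barcodes on day 14 reaches up to 0.0844%. Of those barcodes, 35 in control and 30 on day 7 were also members, and all of those on day 28 and day 60 were. Before any filter, 64 deposited barcodes in control and 44 on day 7 had 2 or more rule genes, with 8 on day 14 and 3 each on day 28 and day 60. A share of all barcodes also falls when other cells are more numerous, and fewer mast cells and poorer release of them from the tissue cannot be told apart here.

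**Figure D1:**
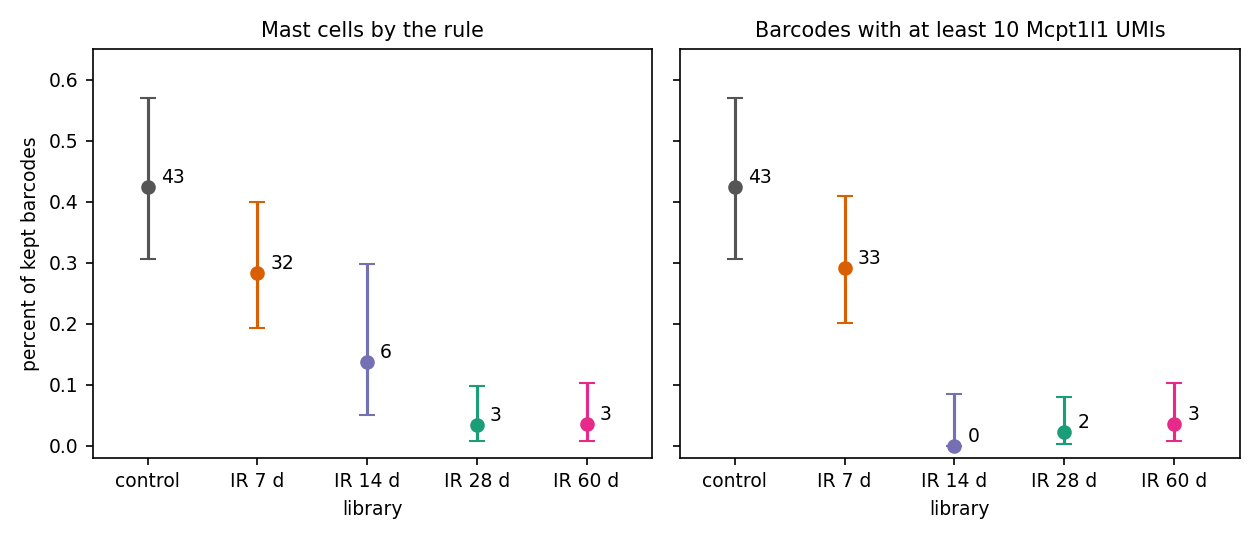
Percent of kept barcodes (vertical axis) in the 5 libraries (horizontal axis), for members of the rule on the left and for barcodes with at least 10 Mcpt1l1 UMIs on the right; bars are exact 95% intervals for counting error and the number beside each point is the count of barcodes. Both panels stand at 43 barcodes in control, and at 3 or fewer on day 28 and day 60.

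The members were small in RNA. Their median depth was 1642 UMIs, against 8830 UMIs over all kept barcodes, and 23 of the 87 had a UMI of the pan-leukocyte gene Ptprc. Medians by library were 1382 UMIs in control, 1776 on day 7, 2129.5 on day 14, 1918 on day 28 and 2065 on day 60. All 6 rule genes were seen in 26 members, 5 in 24, 4 in 17, 3 in 9 and only 2 in 11. Those just inside the threshold, with exactly 2 rule genes, held Kit in 1 of 11 and Mcpt1l1 in 1 of 11. Just outside it, 127 barcodes with 1 rule gene held Kit in 3.94% and Mcpt1l1 in 0. With 4 or more rule genes Kit was found in 41.2% to 46.2% and Mcpt1l1 in at least 94.1% of members.

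The members with only 2 rule genes differed in size between libraries, and this bears on every level below. The 6 of them in control had a median of 8469 UMIs, 0.00928% to 0.183% of their UMIs from granule proteases and together 47.3% of all member UMIs of that library. The 1 such member on day 7 held 0.673% of member UMIs there. One of the control members held 210 UMIs of Cd74 and carried nearly all dendritic cell marker UMIs of the control members, 413 of 414. The comparison of day 7 with control was therefore made for all members and again for members with at least 3 rule genes, 31 on day 7 and 37 in control. That second setting still held the largest day 7 member, of 7247 UMIs, with 3 rule genes and 0.0414% of its UMIs from granule proteases. This member had 0 UMIs of Mcpt1l1, 37 of Fosb and 13 of Klf4, so low-protease barcodes were not left out evenly. Doublet scores were among the highest 5% of their library in 8 of the 87 members, 2 of them in control, 2 on day 7, 1 on day 28 and all 3 on day 60.

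Granule proteases dominated the members of control and day 7 skin. Mcpt1l1, Cpa3, Cma1 and the tryptases Tpsb2 and Tpsab1 together made up a median of 9.62% of a member's UMIs in control (0.00928% to 24.4%), 9.84% on day 7 (0.0% to 19.95%), 0.0166% on day 14 (0.0% to 0.113%), 2.71% on day 28 (0.0% to 2.84%) and 2.90% on day 60 (1.60% to 5.24%). The highest member on day 28 stayed below the median of control, and the 3 members on day 60 lay between 1.60% and 5.24%.

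Mcpt1l1, the leading transcript, had 3302 UMIs in 38 of 43 members of control, 3744 in 30 of 32 on day 7, 0 in 6 on day 14, 53 in 2 of 3 on day 28 and 109 in all 3 on day 60. These are levels of 32110 CPM, counts scaled to 1000000 member UMIs, in control, 46660 on day 7, 9614 on day 28 and 15660 on day 60. Cpa3, which trims peptides in the granule, had 967 UMIs in control, 1384 on day 7, 5 on day 14, 40 on day 28 and 41 on day 60. Cma1 had 1070 UMIs in control, 1267 on day 7, 2 on day 14, 40 on day 28 and 31 on day 60. Read assignment among the near-identical Mcpt copies and between Tpsb2 and Tpsab1 is uncertain.

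The tryptases were less widespread than the chymases. Tpsb2 had 391 UMIs in 33 control members, 429 in 28 members on day 7, none on day 14 or day 28 and 10 in 2 of 3 members on day 60. Tpsab1 had 217 UMIs in 29 control members, 406 in 25 on day 7, none on day 14 or day 28 and 21 in 2 of 3 on day 60. Mcpt2, the chymase of mucosal mast cells in the rat, had 7 UMIs, all in 1 control member, with 1 UMI each on day 14 and day 28. Mcpt1l1, Cma1 and Cpa3 were thus found together in 4 of the 5 libraries, and the tryptases in 3.

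Other mast cell genes that the rule did not use were present at lower levels. Kit, the receptor for stem cell factor, had 20 UMIs in 16 of 43 control members, 18 in 12 of 32 on day 7, 0 in 6 on day 14, 1 in 1 of 3 on day 28 and 2 in 2 of 3 on day 60. Hpgds, which makes prostaglandin D2, had 55 UMIs in 25 control members, 34 in 19 on day 7, 0 on day 14, 5 in 1 member on day 28 and 2 in 1 on day 60. Tph1, the entry enzyme of serotonin synthesis in the periphery, had 41 UMIs in 23 control members, 62 in 17 on day 7, 0 on day 14, 10 in 2 on day 28 and 4 in 2 on day 60. Enpp3, the ectoenzyme known as CD203c, had 49 UMIs in 23 control members, 85 in 22 on day 7, 6 in 5 on day 14, 1 on day 28 and 2 on day 60.

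Granule RNA outside the members was also rarer in the later libraries. Over all kept barcodes that were not members, Mcpt1l1 stood at 11.4 CPM in control, 5.97 on day 7, 0.0597 on day 14, 0.0236 on day 28 and 0.117 on day 60. Thinned to 1000 UMIs, Mcpt1l1 was found in 96.3% of 27 members on day 7 and 79.3% of 29 members in control. In barcodes rich in keratin or collagen RNA, which should lack it, the share was 0.394% on day 7 and 0.431% in control. The members' median depth before thinning was 1888 UMIs on day 7 and 1791 in control, and that of the keratin- or collagen-rich barcodes 10263 UMIs on day 7 and 13217 in control.

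Against other immune cells the members stood out by the same genes. The comparison set 209377 member UMIs against those of 3044 other kept barcodes with a Ptprc UMI that passed the same collagen and keratin limits. A gene was called where its CPM ratio was at least 2 in either direction and the 95% interval of the ratio excluded 1, among genes with at least 20 UMIs. Of 11325 genes, 888 were called higher in members, 7.84%, and 826 lower, 7.29%. Since members were selected on genes of these cells, the contrast is a description. Its 2 sides also differed in their mix of libraries. Control gave 43 and day 7 gave 32 of the 87 members, but 366 and 492 of the 3044 other immune barcodes. Day 14 gave 813 and day 28 gave 1081 of those others, so cell type and library cannot be fully told apart in the summed values.

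Mcpt1l1 stood at 34430 CPM in members and 2.39 CPM in other immune barcodes, and Tpsab1 at 3076 CPM in members and 0.352 CPM in the others. Serpinb1a, an inhibitor of serine proteases, stood at 5478 CPM in members and 150.6 CPM in other immune barcodes, 36.4 times as high (33.8 to 39.1). Kit stood at 195.8 CPM in members and 5.56 CPM in the others, 35.2 times as high (23.5 to 52.0). Mrgprb3 and Mrgprx2 belong to a receptor family whose mast cell members in mouse and human answer basic peptides and drugs without IgE. Mrgprb3 had 45 UMIs in members and 0 in the others, and Mrgprx2 stood at 200.6 CPM in members and 6.19 CPM in the others.

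Serotonin genes were among those with the highest ratios. Tph1 stood at 558.8 CPM in members and 0.352 CPM in other immune barcodes, and the serotonin transporter Slc6a4 at 186.3 CPM in members and 1.48 CPM in the others. Gata2 stood at 329.5 CPM in members and 3.59 CPM in the others, with 29 of its 69 member UMIs in the 6 members of day 14. Another 18 lay in 1 control member with only 2 rule genes and 0.183% of its UMIs from granule proteases. Syngr1, a synaptogyrin of vesicle membranes, and Tesc, Cobll1, Ttc39b and Dnase2b completed the 15 named genes. Dnase2b had 0 UMIs in the 43 control members, and 17 of its 24 member UMIs lay in the 6 members of day 14. Called higher were 17 of the 27 tested mast cell markers outside the rule, with a median log2 ratio of 2.22, against -0.19 over all genes tested. Of the list of histamine, serotonin and heparin genes 9 of 16 were called higher, with a median log2 ratio of 1.05. Hdc, a rule gene that chose the members, is on that list, so its count is a description.

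Genes of most other leukocytes were low, but not those of basophils. Of the basophil list 3 of 5 tested genes were called higher and 2 lower, with a median log2 ratio of 2.49. The neutrophil list had 1 of 9 called higher and 3 lower. Called lower in members were 9 of 11 macrophage and monocyte genes, 8 of 11 genes of T, NK and innate lymphoid cells and 5 of 9 dendritic cell genes, and none of these 3 lists had a gene called higher. The rule bars UMIs of C1qa, C1qb and C1qc from members only. Low macrophage genes in members are thus in part set by the selection. Mural cell genes went the other way, with 5 of 5 called higher, and in control the defining mural markers Acta2 and Rgs5 lay in 3 members, all with only 2 rule genes. Interferon response genes had 13 of 32 called lower and none higher, with a median log2 ratio of -0.89. The part of the library mix in these values was not tested.

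The 6 members of the day 14 library lacked most proteases of mast cells, Kit, Hpgds and Tph1. Mcpt1l1, Tpsb2, Tpsab1, Kit, Hpgds and Tph1 had no UMI in any of them, and Cpa3 had 5 UMIs in 1. Against a floor of 3 counts in those members, Mcpt1l1 was at least 170.0-fold lower, Tpsb2 at least 19.6-fold lower, Tpsab1 at least 15.2-fold lower and Hpgds at least 2.26-fold lower there than in the 81 members of the other libraries. At that floor the absence of Kit was not detectable as a difference. They had entered the rule through Hdc, the histamine-forming enzyme, with 42 UMIs in 6 of 6, and through Fcer1a in 4, Ms4a2 in 3, Cma1 in 2 and Cpa3 in 1. Enpp3, which the rule did not use, stood at 433.8 CPM in 5 of the 6 and Serpinb1a at 650.7 CPM in 3.

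Their leading genes were proteases of another type. Mcpt8l3 had 397 UMIs in 5 of the 6 members on day 14, with 162, 43, 154, 35, 3 and 0 UMIs by member, and 2 UMIs in the 81 other members. Mcpt8l2 had 78 UMIs in the same number of members and 1 UMI in the others, and Mcpt1l4, another granule protease gene, 158 in 4 and 1 in the others. As background, proteases of the Mcpt8 family are known from basophils. Gata2 was found in 6 of 6 members on day 14, with 29 UMIs, and in 13 of the 81 others. Mcpt8 and Cd200r3 were not among the gene symbols of the counts and could not be read, and Prss34 had 3 UMIs in 2 members.

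Further genes were shared by these barcodes. Prg2, the granule major basic protein, had 65 UMIs in 4 of 6 members on day 14 and 0 in the other 81 members. The chemokine Ccl3 had 71 UMIs in 5 members on day 14 and 6 in the others, and the acute phase protein Hp had 40 in all 6 and 5 in the others. Il3ra, the receptor chain for interleukin 3, had 25 UMIs in all 6. Over the whole day 14 library 6 kept barcodes had at least 10 Mcpt8l3 UMIs, 4 of them members, with 1 such barcode on day 7 and 0 in each of the other 3 libraries. Neutrophil markers S100a8, S100a9 and Csf3r summed to 28 UMIs in 4 of the 6, 20 of them in 1 member. Without members that held Mcpt8l2 or Mcpt8l3, 1 member remained on day 14, or 0.0229% of kept barcodes. The proteases of the 6 members on day 14 thus go against the name of mast cells. Hdc, Fcer1a and Ms4a2 are rule genes, so their presence came from the selection and does not speak for that name. The IgE receptor and histamine synthesis are also known from basophils. Enpp3, which the rule did not use, was shared with the other members, and whether it separates mast cells from basophils was not tested. These 6 barcodes are called by their rule here.

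**Figure D2:**
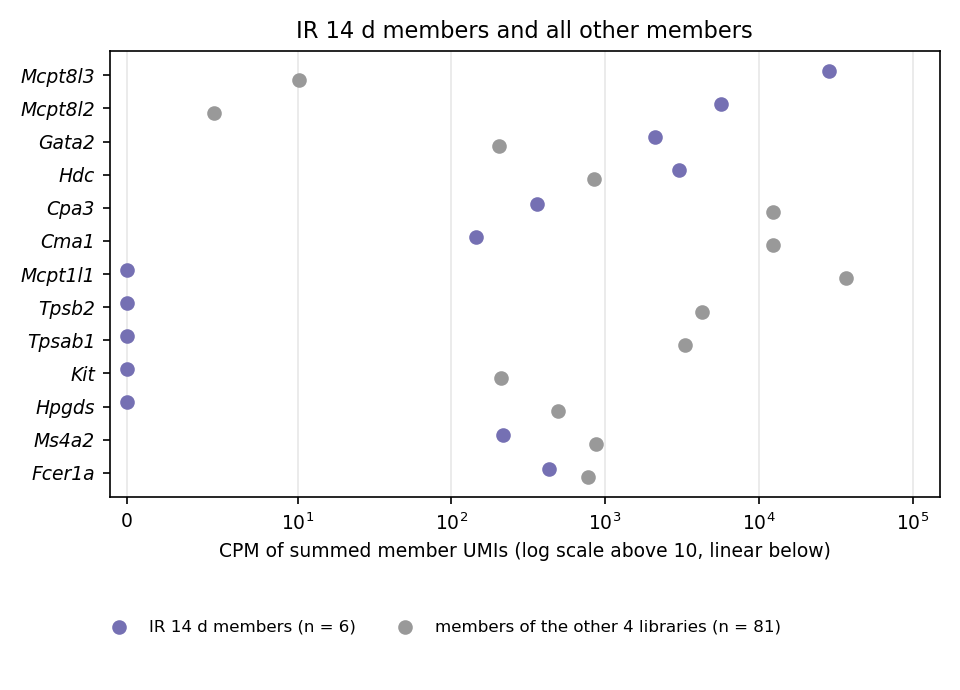
Level of each gene in CPM of summed member UMIs (horizontal axis, log scale above 10) in the 6 members on day 14 (purple) and the 81 members of the other 4 libraries (grey). Mcpt8l3 and Mcpt8l2 lay far to the right in the day 14 members, and Mcpt1l1, Tpsb2, Tpsab1, Kit and Hpgds had 0 UMIs there.

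**Figure D3:**
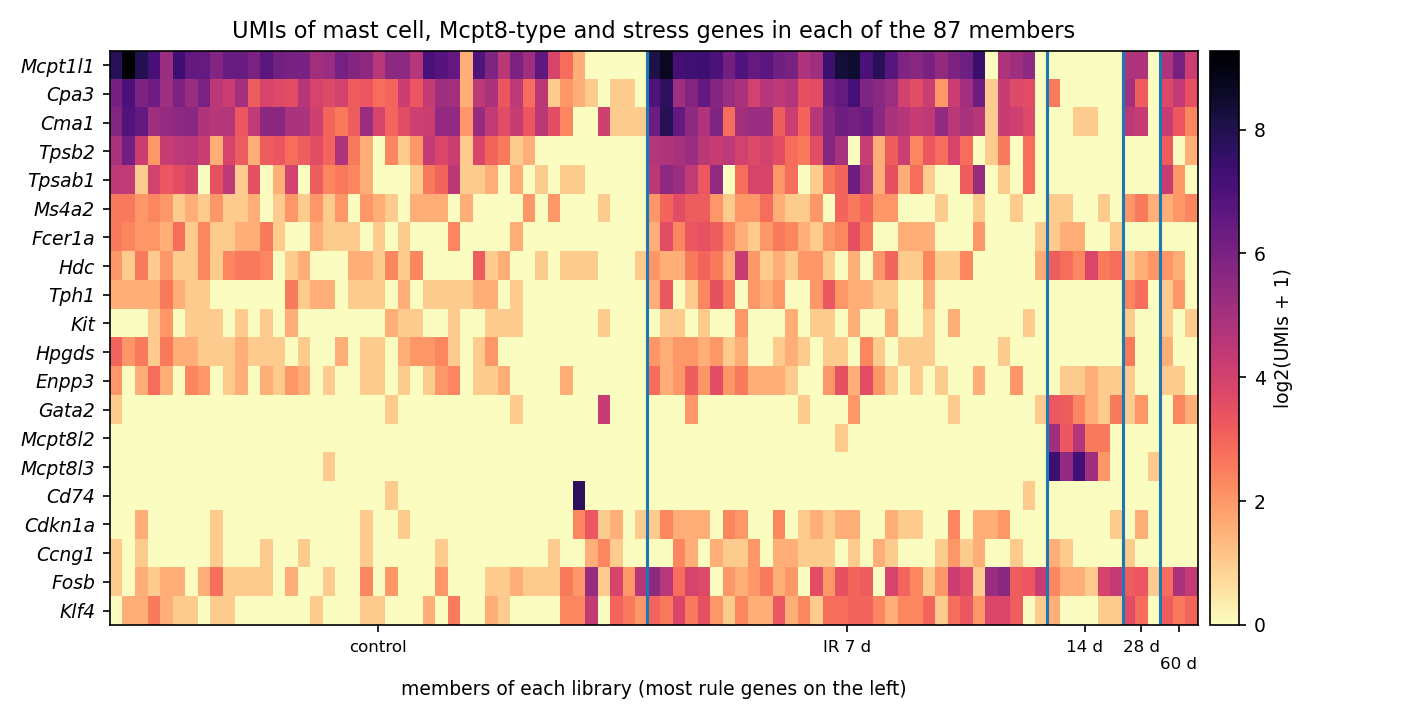
Each column is 1 of the 87 members, grouped by library with most rule genes on the left, and each row a gene; colour is log2 of UMIs plus 1. The 5 mast cell proteases Mcpt1l1, Cpa3, Cma1, Tpsb2 and Tpsab1 filled most columns of control and day 7. No day 14 member had more than 5 UMIs of any of these 5, and in the 6 control members with only 2 rule genes none passed 2 UMIs but for 16 of Cma1 in 1 member.

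The only irradiated library with at least 20 members, the minimum for its own comparison, was that of day 7, with 80248 member UMIs against 102826 in control. Of 1206 genes tested, 81 were called higher on day 7, 6.72%, and 92 lower, 7.63%, and the median log2 ratio over all of them was -0.06. With at least 3 rule genes, 852 genes were tested, 84 were called higher, 9.86%, and 37 lower, 4.34%. Of the 81 higher calls 46 were shared with that setting, and of the 92 lower calls only 11. Log2 ratios carry a prior of 10 CPM.

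Granule genes stood higher on day 7 over all members, and most of them did not among members with at least 3 rule genes. The rule genes among them, Cpa3, Cma1 and Tpsb2, chose the members, so the list is a description. Of 10 tested granule proteases and helpers all 10 had a ratio over 1, with 1 called higher, none lower and a median log2 ratio of 0.58. Of all genes tested 6.72% were called higher. Among members with at least 3 rule genes 4 of 10 had a ratio over 1, with a median of -0.10. Tpsab1 stood at 5059 CPM on day 7 and 2110 CPM in control, 2.40 times as high (2.03 to 2.84), but 1.28 times (1.08 to 1.52) with at least 3 rule genes. Mcpt1l1 was 1.45 times as high (1.39 to 1.52) in all members and 0.772 times (0.737 to 0.809) with at least 3, so its direction turned. Cpa3 had a ratio of 0.979 (0.901 to 1.06) in that setting. Fcer1a, the IgE-binding chain and also a rule gene, stood at 1221 CPM on day 7 and 515.4 CPM in control over all members, again as a description.

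A heparin enzyme was lower on day 7 in both settings. Of 7 tested genes of histamine, serotonin and heparin 1 was called lower and none higher, against 7.63% lower and 6.72% higher over all genes. The list holds the rule gene Hdc. Hs3st1, the sulfotransferase that gives heparin its antithrombin site, had 2 UMIs in 1 of 32 members on day 7 and 48 UMIs in 11 of 43 members in control, a ratio of 0.0534 (0.00629 to 0.204). Among members with at least 3 rule genes it had 2 UMIs in 1 of 31 on day 7 and 40 in 10 of 37 in control, a ratio of 0.0340 (0.00398 to 0.131). Of its control UMIs 20 lay in 1 member. Other kept cells held Hs3st1 at like levels, 22.1 CPM on day 7 and 23.5 CPM in control. It was found in 3.70% of thinned members on day 7 and 24.1% in control, against 3.20% on day 7 and 3.48% in control in keratin- or collagen-rich barcodes. It had 0 UMIs on day 14, 1 on day 28 and 2 on day 60.

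Hpgds had 34 UMIs in 19 of 32 members on day 7 and 55 in 25 of 43 in control, and was not called, at 0.792 (0.501 to 1.24). With at least 3 rule genes its ratio was 0.421 (0.266 to 0.657), which was called lower. Ccl2, the most abundant chemokine of these members, had 1202 UMIs in 31 members on day 7 and 1698 in 41 in control. Its ratio was 0.907 (0.842 to 0.977) in all members and 0.499 (0.463 to 0.538) with at least 3 rule genes. In the other kept cells Ccl2 stood at 4036 CPM on day 7 and 6671 CPM in control.

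Among p53 targets, the genes that DNA damage is known to induce, calls on day 7 were mostly upward. Of 9 tested, 5 were called higher and 1 lower, with a median log2 ratio of 1.11, and with at least 3 rule genes 5 of 7 were called higher and none lower, with a median of 1.41 against -0.02 over all genes. The shares over all genes were 6.72% higher and 7.63% lower, or 9.86% and 4.34% with at least 3 rule genes. Cdkn1a, the cell cycle inhibitor p21, had 45 UMIs in 20 of 32 members on day 7 and 22 UMIs in 9 of 43 in control, a ratio of 2.62 (1.54 to 4.58). With at least 3 rule genes it had 45 UMIs in 20 of 31 on day 7 and 5 UMIs in 4 of 37 in control, a ratio of 6.13 (2.44 to 19.8). At later times it had 1 UMI on day 14, 2 on day 28 and 0 on day 60.

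Ccng1, cyclin G1, had 32 UMIs in 19 members on day 7 and 15 in 11 in control, a ratio of 2.73 (1.44 to 5.43), and 2.72 (1.23 to 6.84) with at least 3 rule genes. Mdm2, which marks p53 for degradation, had 26 UMIs in 14 members on day 7 and 10 in 8 in control, a ratio of 3.33 (1.55 to 7.74), and 3.54 (1.34 to 11.8) with at least 3 rule genes. Rps27l had 33 UMIs in 19 members on day 7 and 19 in 10 in control, a ratio of 2.23 (1.23 to 4.14), and 3.74 (1.55 to 10.9) with at least 3. Plk2, called in all members at 3.63 (1.37 to 11.3), was not called with at least 3 rule genes. Btg2 and Gadd45a, the most abundant of the list, had ratios of 1.62 (1.22 to 2.15) and 1.24 (0.940 to 1.62). Btg2 with at least 3 rule genes was called higher at 2.12 (1.45 to 3.15) and Gadd45a stood at 0.650 (0.493 to 0.856). The lower call was Pmaip1, with 4 UMIs on day 7 and 17 in control, of which 13 lay in 1 member. With at least 3 rule genes it was under the minimum of 20 UMIs.

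Cdkn1a and Mdm2 also stood higher in the rest of the skin on day 7. In other kept cells Cdkn1a was at 971 CPM on day 7 and 357.3 CPM in control, and Mdm2 at 517.3 CPM on day 7 and 92.3 CPM in control. Free RNA of other cells can add UMIs to members, and its part in these values was not tested. Members on day 7 held Cdkn1a at 57.8% of the level of the other cells, Ccng1 at 190.0%, Col1a1 at 6.07%, Dcn at 5.71% and Krt5 at 10.6%, the last 3 of which the rule itself limits. After thinning, Cdkn1a was found in 59.3% of 27 members on day 7 and 10.3% of 29 in control. In keratin- or collagen-rich barcodes of the same libraries the share was 54.2% on day 7 and 16.8% in control. Ccng1 was found in 55.6% of thinned members on day 7 and 10.3% in control, against 17.2% on day 7 and 9.86% in control in those barcodes.

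Immediate early genes, which stimulation of a cell is known to induce within minutes, also had mostly upward calls on day 7. Of 21 tested, 6 were called higher and 1, Maff, lower, against 6.72% higher and 7.63% lower over all genes. The median log2 ratio was 0.59. With at least 3 rule genes 11 of 19 were called higher, against 9.86% over all genes, with a median of 1.07. Fosb had 337 UMIs in 29 of 32 members on day 7 and 130 in 29 of 43 in control, a ratio of 3.32 (2.71 to 4.10), and 4.82 (3.52 to 6.75) with at least 3 rule genes. Jun had 298 UMIs on day 7 and 182 in control, a ratio of 2.10 (1.74 to 2.54), and 82 of the control UMIs lay in 1 member. Its ratio with at least 3 rule genes was 3.11 (2.37 to 4.13). Klf4 had 169 UMIs in 31 members on day 7 and 70 in 21 in control, a ratio of 3.09 (2.33 to 4.15), and 3.57 (2.44 to 5.39) with at least 3 rule genes. Single members on day 7 held 48, 46 and 37 of the Fosb UMIs, the last of them with 0.0414% of its UMIs from granule proteases. The part of free RNA in the levels of Fosb, Jun and Klf4 was not tested.

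Nr4a1, the orphan nuclear receptor the study is about, had 20 UMIs in 10 of 32 members on day 7 and 21 in 7 of 43 in control, a ratio of 1.22 (0.628 to 2.37). Among members with at least 3 rule genes it had 20 UMIs in 10 of 31 on day 7 and 4 in 4 of 37 in control, a ratio of 3.40 (1.14 to 13.7), which was called higher. The control members with only 2 rule genes held the other 17 control UMIs. It had 0 UMIs on day 14 and 2 each on day 28 and day 60. Thinned to 1000 UMIs it was found in 11.1% of members on day 7 and 13.8% in control, against 20.7% on day 7 and 11.1% in control in keratin- or collagen-rich barcodes. The thinned members include those with only 2 rule genes.

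Heat shock genes had 3 of 8 called higher on day 7 and none lower, with a median log2 ratio of 0.66. With at least 3 rule genes 4 of 7 were called higher. Over all genes 6.72% were called higher, and 9.86% with at least 3 rule genes. Hspa1b, an inducible chaperone, had 55 UMIs in 15 members on day 7 and 16 in 8 in control, a ratio of 4.41 (2.49 to 8.24), and 9.36 (3.45 to 35.6) with at least 3 rule genes. Other kept cells held it at 3618 CPM on day 7 and 1215 CPM in control. Hspa8, the most abundant of the list, was not called, at 1.52 (1.23 to 1.88), nor at 1.404 (1.09 to 1.82) with at least 3 rule genes.

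**Figure D4:**
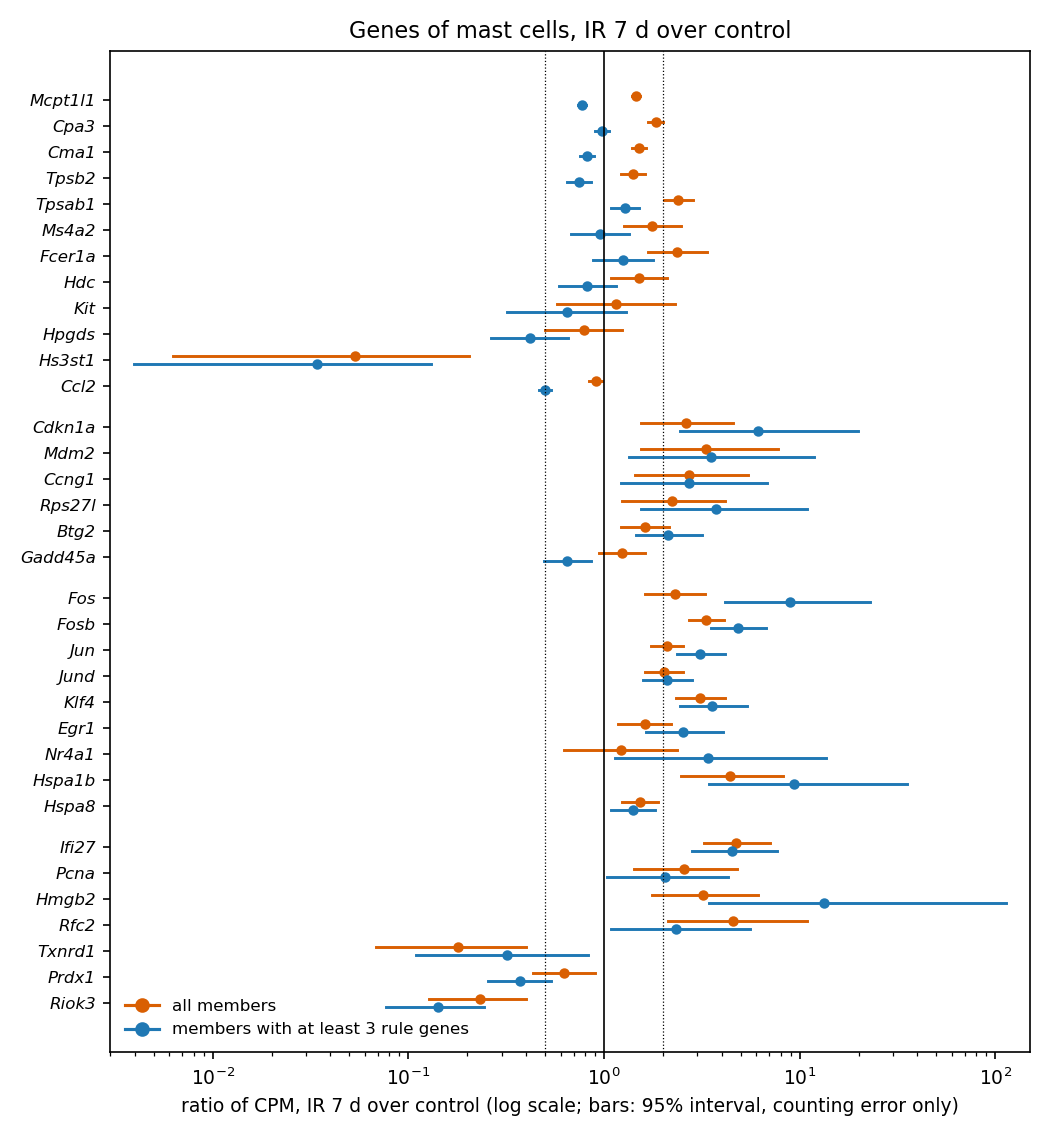
Ratio of CPM on day 7 over control (horizontal axis, log scale) for named genes, for all members in orange and members with at least 3 rule genes in blue; bars are exact 95% intervals for counting error, and dotted lines mark the 2-fold limits. Mcpt1l1 moved to the left of 1 in blue, while Tpsab1 stayed to the right of 1. Hs3st1 and Riok3 stayed low in both, and Cdkn1a, Fosb and Klf4 stayed high in both.

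Ifi27, an interferon-induced gene, had 133 UMIs in 26 of 32 members on day 7 and 36 in 20 of 43 in control, a ratio of 4.73 (3.25 to 7.05), and 4.53 (2.82 to 7.65) with at least 3 rule genes. In other kept cells it stood at 1787 CPM on day 7 and 500.5 CPM in control. Of the 5 tested interferon response genes 2 were called higher and 2 lower, against 6.72% higher and 7.63% lower over all genes. The lower ones, Irf1 and Cxcl10, had most of their control UMIs in 1 member, 16 of 28 and 37 of 49, and were under the minimum of 20 UMIs with at least 3 rule genes. There 2 of 3 tested genes were called higher and none lower, against 9.86% higher and 4.34% lower over all genes.

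A small set of genes was higher on day 7 in members while staying low in the other cells. Cd72, a lectin-like receptor with an inhibitory motif, had 45 UMIs in 18 of 32 members on day 7 and 17 in 12 of 43 in control, a ratio of 3.39 (1.90 to 6.32). Other kept cells held Cd72 at 1.56 CPM on day 7 and 1.01 CPM in control. Its ratio with at least 3 rule genes was 1.80 (1.01 to 3.36) and it was not called. Rfc2, a subunit of the clamp loader of DNA replication, had 32 UMIs in 14 members on day 7 and 9 in 9 in control, a ratio of 4.56 (2.13 to 10.9), and 2.34 (1.09 to 5.60) with at least 3 rule genes.

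Pcna, the clamp itself, had 36 UMIs in 18 members on day 7 and 18 in 11 in control, a ratio of 2.56 (1.42 to 4.79), and 2.04 (1.04 to 4.31) with at least 3 rule genes. Other kept cells held it at 138.2 CPM on day 7 and 155.0 CPM in control. Of 4 tested proliferation genes 3 were called higher in both settings, against 6.72% of all genes, and 9.86% with at least 3 rule genes. No reading of cycling was made from them. Hmgb2, a chromatin protein, had 40 UMIs in 12 members on day 7 and 16 in 8 in control, with 17 of those on day 7 in 1 member. Among members with at least 3 rule genes it had 39 UMIs on day 7 and 2 in control. Crabp1, a retinoic acid binding protein, headed the named genes with 88 UMIs on day 7 and 16 in control, but 84 of the 88 lay in 1 member on day 7 and 15 of the 16 in 1 member of control. Sdf4, Vopp1, Ccl7 and Tubb2a were further named genes called higher, with ratios between 3.05 and 5.38, and of these 4 Vopp1 was not called with at least 3 rule genes.

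Chemokines moved both ways. Of 6 tested cytokines and chemokines 3 were called higher on day 7 and 1 lower, against 6.72% and 7.63% over all genes. With at least 3 rule genes 2 of 4 were called higher and 1 lower, against 9.86% and 4.34%. Cxcl1, a chemokine for neutrophils, had 116 UMIs in 18 of 32 members on day 7 and 34 in 19 of 43 in control, a ratio of 4.37 (2.96 to 6.61), and 4.604 (2.75 to 8.18) with at least 3 rule genes. Other kept cells held Cxcl1 at 5019 CPM on day 7 and 5660.0 CPM in control. Tgfb1, the growth factor TGF-beta 1, had 22 UMIs in 15 members on day 7 and 11 in 8 in control, a ratio of 2.56 (1.19 to 5.85). It was not called with at least 3 rule genes.

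Antioxidant genes of the NRF2 list had few calls on day 7. Of 13 tested over all members, 3 were called lower and none higher, against 7.63% lower and 6.72% higher over all genes. With 13 genes tested, the absence of higher calls is near that share. With at least 3 rule genes 2 of 12 were called lower and 1, Sod2, higher, against 4.34% lower and 9.86% higher. Sod2 was called in opposite directions, lower over all members at 0.450 (0.293 to 0.675) and higher at 2.25 (1.08 to 5.11) with at least 3 rule genes. Txnrd1, thioredoxin reductase, had 7 UMIs in 6 of 32 members on day 7 and 50 in 15 of 43 in control, a ratio of 0.179 (0.0686 to 0.398), and 0.318 (0.110 to 0.828) with at least 3 rule genes. Prdx1, a peroxiredoxin, was called lower only with at least 3 rule genes, at 0.372 (0.255 to 0.537), with 25 of its 98 control UMIs in 1 member. Fth1 and Ftl1, the ferritin chains and the most abundant of the list, had ratios of 0.747 (0.669 to 0.833) and 0.885 (0.761 to 1.03). Their ratios with at least 3 rule genes were 0.605 (0.537 to 0.682) and 0.610 (0.520 to 0.714).

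Riok3, a kinase of the RIO family, was called lower in both settings. It had 16 UMIs in 11 of 32 members on day 7 and 88 in 27 of 43 in control, a ratio of 0.233 (0.128 to 0.400), and 0.141 (0.0770 to 0.245) with at least 3 rule genes. After thinning it was found in 22.2% of members on day 7 and 55.2% in control, against 8.28% on day 7 and 12.3% in control in keratin- or collagen-rich barcodes. Bcl2a1, a survival gene of the BCL2 family, had 2 UMIs on day 7 and 46 in control, of which 40 lay in 1 member, and was under the minimum of 20 UMIs with at least 3 rule genes. Cnksr3, Ndel1, Bzw2 and B3gnt2 were further named genes called lower, with ratios between 0.117 and 0.250, and all 4 were under the minimum of 20 UMIs with at least 3 rule genes.

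Markers of surrounding cells moved as well. Col1a1, Col3a1 and Dcn summed to 3240 CPM in members on day 7 and 1400 CPM in control, with UMIs in 32 of 32 members on day 7 and 36 of 43 in control. Col1a1 and Dcn were called higher on day 7 in both settings. Of the dendritic cell list 4 of 4 tested genes were called lower on day 7, against 7.63% of all genes. None of them had 20 UMIs with at least 3 rule genes. Acta2 and Rgs5 summed to 137.1 CPM on day 7 and 544.6 CPM in control, and Krt5, Krt14 and Krt10 to 186.9 CPM on day 7 and 398.7 CPM in control. The direction of these last markers turned with the setting. Over all members 4 of 4 tested mural genes were called lower, while with at least 3 rule genes the 1 tested, Tagln, was called higher, with 38 UMIs in 3 members on day 7 and 2 in 2 in control. Of 4 tested keratinocyte genes none had a ratio over 1 over all members, and 3 did with at least 3 rule genes. The part of these markers in the other differences was not tested. Ribosomal protein genes made up a median of 14.8% of member UMIs on day 7 and 19.6% in control, and 10.8% of those of other kept barcodes on day 7 and 19.0% in control.

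With all 44 irradiated members pooled, 117 of 1386 genes were called higher than in control, 8.44%, and 97 lower, 7.0%. The day 14 members decided the upper end of that list. Mcpt8l3 had 398 UMIs in irradiated members, 397 of them from day 14, and 1 in control. Mcpt1l4, Mcpt8l2, Ccl3 and Hp had 45 to 159 UMIs in irradiated members, with 40 to 158 of them from day 14, and 0 in control. Without the day 14 library 86 genes were called higher, 69 of them shared with the 117. Isg15, an interferon-induced gene, had 1 UMI in control, 14 in 12 of 32 members on day 7 and 54 in 6 of 6 on day 14, 44 of these in 1 member.

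At the lower end of the pooled list, Hs3st1 had 5 UMIs in 44 irradiated members and 48 in 43 control members, a ratio of 0.101 (0.0312 to 0.251). Bzw2, B3gnt2, Txnrd1 and Bcl2a1 were named in both comparisons, which share their control and day 7 members. p53 targets had 4 of 9 called higher and none lower in the pool, with a median log2 ratio of 0.80 against -0.04 over all genes. Of 69 ribosomal protein genes tested none was called in either direction, with a median log2 ratio of -0.53.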

How the data were processed

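Per the labels, libraries were made with Chromium Single cell 3' v3 kits, and the submitters' processing notes name Cell Ranger 5.0.0, STAR, Seurat 3.1.1 and the build Rnor_6.0 without their roles. The deposited values are raw UMI counts per barcode and gene, with no normalization by the authors. Rows sharing a symbol were summed, which left 30017 symbols from 32623 rows. The libraries held 70073362 to 139566348 UMIs in 49507 barcodes. Barcodes with at least 500 UMIs, 300 genes and at most 20% mitochondrial UMIs were kept. One member's barcode also occurred in another library, and no member was shared.

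The members and gene lists were chosen with earlier results of these data known. Member counts were summed per library and scaled to CPM. Intervals are exact Poisson (sums), conditional binomial (ratios) and Clopper-Pearson (shares). With 1 library per group no test was made. Genes with at least 20 UMIs over both sums were compared, and where 1 side had no UMI a bound was taken with 3 counts in its place. Named genes are the 10 highest and 10 lowest log2 ratios among called genes seen in at least 10% of members of the higher group, and at a CPM no lower than in other kept cells. Against immune cells they are the 15 highest with at least 100 CPM in members and a UMI in at least 25% of members of at least 3 libraries. Genes of mitochondria, ribosomal proteins and without a symbol of their own were not named. The most abundant genes of each list, Nr4a1 and Cdkn1a were added, and other list genes were named after their values were seen. Some genes that meet this rule are not reported here. Of 515 list symbols 486 were in the files. Shares of cells were taken after thinning members of at least 1000 UMIs to 1000 UMIs, which left out 5 members on day 7 and 14 in control.

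Doublets were scored with the Scrublet method in scanpy 1.11.5 and not removed. Its own threshold called 0 barcodes on day 28 and day 60, so leaving out the highest 5% was used as the alternative. Alternatives changed the number of rule genes, the filters, collagen and keratin limits, depth, doublets, scaling, the UMI minimum and the libraries pooled. Other denominators, members without Mcpt8l2 or Mcpt8l3, and leaving out the member with the most UMIs of a gene were chosen after seeing the data. The calling steps were tested on simulated data. Python 3.11.15, numpy 2.4.6 and scipy 1.17.1 were used.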

Additional observations from a re-analysis of the deposited data

How the results depend on the processing

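Control had the highest member share under every alternative run, but the size of the shares depended on the definition. Among barcodes of at least 1000 UMIs thinned to that depth, the share was 0.2477% in control and 0.2426% on day 7, and the differences from control were -0.224 points on day 28 and -0.2119 points on day 60. Without the 5% highest doublet scores no member remained on day 60, a share of 0.0%. With only barcodes inside the collagen and keratin limits as denominator, shares were 1.849% in control, 1.319% on day 7 and 0.2058% on day 60, and differences from control -0.5304 points on day 7, -1.567 on day 14, -1.763 on day 28 and -1.644 on day 60. Over all deposited barcodes with 2 rule genes the control share was 0.5885%, with differences of -0.5605 points on day 28 and -0.5574 on day 60. Without members holding Mcpt8l2 or Mcpt8l3 the day 14 share was 0.02288%. At day 7, 37 genes were called lower with at least 3 rule genes and 59 without the member with the most UMIs of the gene in each group. A minimum of 50 UMIs left 37 genes called higher and 32 lower on day 7, and 55 higher and 38 lower in the pool, since fewer genes were tested. A minimum of 1 UMI gave 170 higher and 172 lower on day 7, and 229 higher and 197 lower in the pool. In the pool 47 genes were called lower with at least 3 rule genes. Leaving out each irradiated library gave 86 to 135 genes called higher and 98 to 151 lower. The mean over irradiated libraries with at least 20 members reduced to day 7 alone, where Mcpt8l3 stood at -0.98. With at least 3 rule genes Coq10b, called lower in the pool, stood at 0.07 and Atp2b1 at 1.46. Against other immune barcodes, single libraries called 474 genes higher in control, 448 on day 7, 342 on day 14, 182 on day 28 and 193 on day 60, with fewer UMIs. The log2 ratio changed sign on day 14 for Tph1 (-0.1), Syngr1 (-0.17), Cobll1 (-1.52), Kit (-0.89), Mrgprx2 (-0.63) and Tesc (-0.61), on day 28 for Ttc39b (-1.15), Cobll1 (-1.12), Mrgprx2 (-0.35) and Tesc (-0.18), and on day 60 for Slc6a4 (-0.29). Each gene named for day 14 or day 28 had no UMI in the members of that day. Its negative sign came from the prior of 10 CPM and is not a measured reversal. A floor of 3 counts is 216.9 CPM on day 14 and 544.2 CPM on day 28. Beyond the change of members or of genes tested, the causes were not tested. No paired analysis was possible because each group holds 1 library and no test was made. With 3 members each, the libraries of day 28 and day 60 limit any statement on levels there.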

Other observations

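Genes of factors that act on mast cells were read in the cells around them. Kitlg, which encodes the ligand of Kit, stood in kept barcodes that were not members at 87.8 CPM in control, 113.6 on day 7, 26.2 on day 14, 28.9 on day 28 and 33.0 on day 60. Il33, an alarmin known to act on mast cells, stood at 41.3 CPM in control, 66.8 on day 7, 22.1 on day 14, 8.30 on day 28 and 11.9 on day 60. These are sums over all other cell types, whose shares differ between the libraries. Il1rl1, the receptor for Il33, had 1 UMI in all members outside day 14 and 3 in the 6 members there, and in the other cells stood at 72.0 CPM in control, 23.4 on day 7, 0.508 on day 14, 1.12 on day 28 and 0.102 on day 60.

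Integrin genes gave another contrast among members. Itgb7, an integrin chain of migrating leukocytes, had 4 UMIs in 3 of 43 control members, 3 in 3 of 32 on day 7, 0 on day 14, 8 in 2 of 3 on day 28 and 3 in 2 of 3 on day 60. These values were singled out after they were seen, and counts this small in 3 members allow no comparison beyond the values themselves.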
